A study of Mus musculus with 20 samples.

Results

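Kinesins are motor proteins that walk along microtubules, most of them toward the plus end. In neurons they carry synaptic vesicle precursors, mitochondria, receptors and RNA granules into axons and dendrites, and light chains and adaptors choose the cargo of kinesin-1. Other members of the superfamily build the mitotic spindle of dividing cells, serve cilia, or shorten microtubules without carrying cargo. The genes described here were taken by symbol from the table of counts. They are Kif genes with a number and at most a single letter from a to c, and Kifc1 to Kifc3. The kinesin-1 light chain genes Klc1 to Klc4 were taken as well. There were 45 such genes among 32245 gene symbols, and they were chosen by name alone. The like-named Kifc5b was in the table but fell outside this rule. By the textbook role of each, 21 were grouped as transport kinesins and light chains, 13 as mitotic kinesins and 11 as other kinesins, most of which serve cilia or regulate microtubules.

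The libraries hold ribosome-associated, poly-adenylated RNA from mouse hippocampus. All mice carried Rbp4-Cre and the RiboTag allele, with which Cre puts an HA tag on the ribosomal protein RPL22 so that ribosomes of Cre-expressing cells, labelled here as granule cells, can be pulled down with anti-HA beads. There were 5 libraries at postnatal day 5 (P5) and 3 each at P7, P10, P15, P21 and P28, and no library of unselected RNA was analysed here. Of the 3 batches, A took in 3 of the P5 libraries with P10 and P15, B took in the other 2 P5 libraries with P7, and C took in P21 with P28, so that age and batch C cannot be told apart in any change from P15 or earlier to P21 or P28. Total counts ran from 15.9 to 24.9 M per library, at which 3 counts, the least that can be told from 0, equal 0.122 to 0.181 CPM (counts per M, that is relative to the library total scaled with TMM factors).

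Of the 45 genes, 42 passed the filter on low counts: all 21 transport genes, 12 mitotic and 9 other kinesins. The 3 that did not were Kif2b, a spindle kinesin with 0 counts in every library, Kif12, with at most 2 counts in a library, and Kif28, with at most 15. All adjusted p-values come from edgeR's quasi-likelihood test over 15373 genes with Benjamini-Hochberg adjustment, and the threshold was 0.05. Each log2 change is fitted, positive where the later age was higher, and given with its standard error (SE). Nothing in the labels ties each library to an animal of its own, and the p-values therefore speak only of the spread among these libraries. In bulk RNA of this kind, fewer cells of a type and less RNA per cell cannot be told apart.

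From P5 to P15, 36 of the 42 tested kinesin genes changed, 10 upward and 26 downward, while 63.4% of all tested genes changed. The 2 directions were near even over all genes (31.6% higher, 31.8% lower). The transport genes split, with 9 higher and 7 lower, and their median log2 change was 0.13. The mitotic kinesins all fell, 12 of 12 tested, with a median of -1.99. Among the other kinesins 1 rose and 7 fell, with a median of -0.74. The median over all tested genes was -0.02. From P5 to P28 there were 8 higher and 28 lower kinesin genes, beside 71.6% of all genes called (35.2% higher, 36.4% lower), and the medians were -0.0029 for transport, -2.89 for mitotic and -1.59 for other kinesins.

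**Figure D1:**
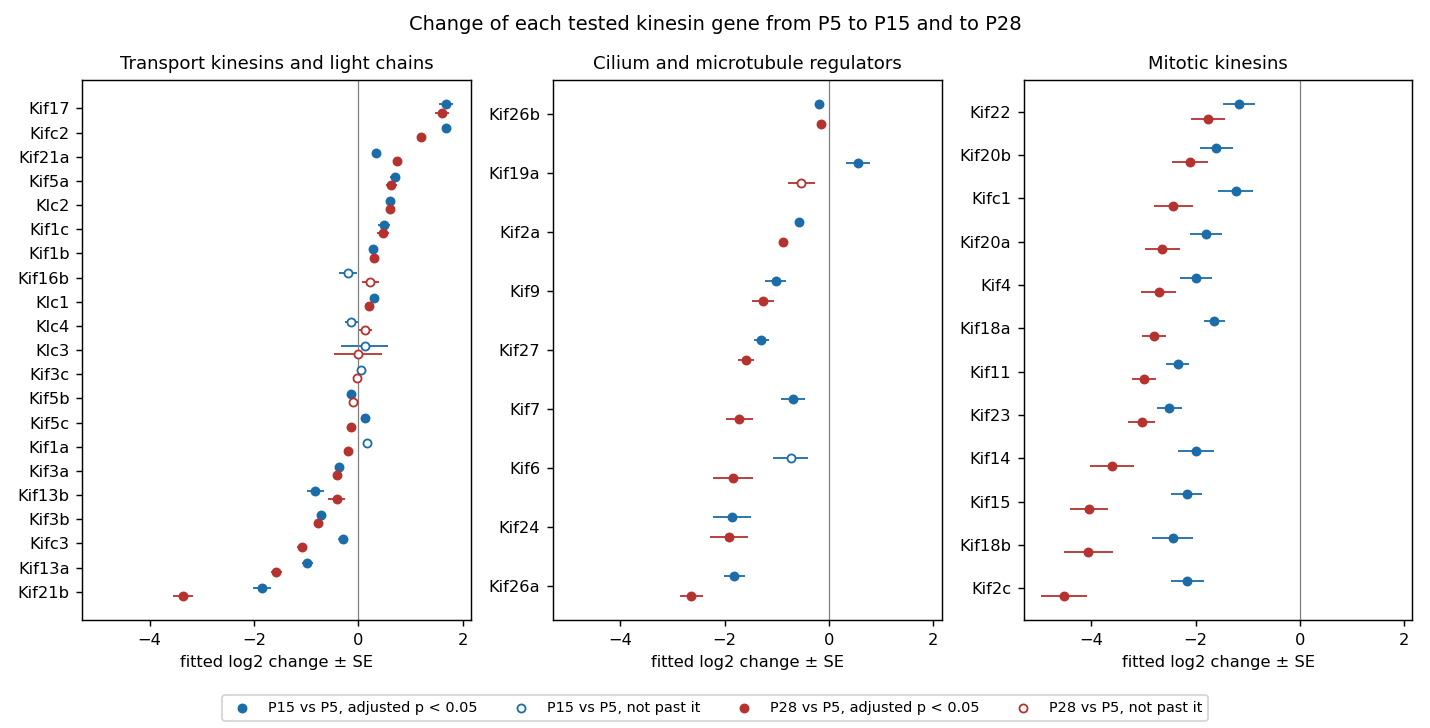
Fitted log2 change (x axis) from P5 to P15 (blue) and from P5 to P28 (red) of each of the 42 tested kinesin genes, in 3 panels by role; bars are the SE, filled points have an adjusted p under 0.05 in edgeR's test and open points do not. Transport genes lie on both sides of 0, from Kif17 and Kifc2 at the top to Kif21b at the bottom, and all 12 mitotic kinesins lie below 0 at both ages.

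Kinesin-1, the motor of conventional fast axonal transport, has 3 heavy chains, and Kif5a and Kif5c are the ones enriched in neurons. Kif5a (chr10:127225696-127263348, minus strand) read 478, 500.3, 495, 606 and 609 CPM in the 5 libraries of P5, of which the first 3 are of batch A in this and in all later lists of P5 values. It read 735, 833 and 615 CPM at P7, 701, 642 and 664 at P10, 711, 761 and 929 at P15, 704, 768 and 879.8 at P21 and 779, 724 and 787 at P28. All libraries from P7 on were above all those of P5, though the change from P5 to P7 was not called. Kif5a rose 1.63-fold to P15 (log2 change 0.70 ± 0.10 (SE), adjusted p = 6e-06) and stood 1.55-fold over P5 at P28 (log2 change 0.64 ± 0.10 (SE), adjusted p = 1.5e-05). In a fit with the spectrin level as a covariate, described below with the other P15 calls lost in it, neither change was called. The log2 changes there were 0.31 (adjusted p = 0.43) at P15 and 0.25 (adjusted p = 0.481) at P28.

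Kif5c, the most abundant heavy chain, went from 906, 954, 943, 1075 and 1067 CPM at P5 to 1027, 1004 and 1038 at P15 and 843, 849 and 853 at P28. The P15 libraries lay within the range of P5 and the P28 libraries lay below it. The calls were small in size: a log2 change of 0.13 ± 0.05 (SE), adjusted p = 0.0395 at P15, and of -0.14 ± 0.05 (SE), adjusted p = 0.0266 at P28. The P15 call is lost when any of 14 of the 20 libraries is left out, with adjusted p up to 0.136, and its value falls to 0.01 with total counts in place of TMM scaling. The P28 call is lost without P5 replicate 2 of batch A (adjusted p = 0.0823), P5 replicate 3 of batch A (0.0655) or P28 replicate 1 (0.0600), and with no filter on low counts (0.0880).

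Kif5b, the heavy chain found in most cell types, read 144, 148, 150.2, 143 and 144 CPM at P5, 134, 136 and 134 at P15 and 138, 138 and 137 at P28. Its libraries at P15 and P28 did not overlap those of P5, yet the fall was -0.13 ± 0.05 on the log2 scale at P15 (adjusted p = 0.0191) and -0.10 ± 0.05 at P28, where it did not pass the test (adjusted p = 0.0642). The P28 change was called by DESeq2 (adjusted p = 0.0472) and limma-voom (0.0488), with the stricter filter of 5 CPM in 3 libraries (log2 change -0.17, adjusted p = 0.000846) and with total counts (-0.22, adjusted p = 8.9e-05). Without P5 replicate 3 of batch A the P15 call was lost (adjusted p = 0.0604). Per kilobase of exon, Kif5a made up 32.8 ± 1.15% (SD, n = 5) of the heavy chain level at P5, 41.6 ± 3.19% (n = 3) at P15 and 44.5 ± 1.12% at P28. The share of Kif5c went from 59.3 ± 0.424% to 48.5 ± 0.980%, and that of Kif5b from 7.88 ± 0.748% to 7.03 ± 0.148%.

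The light chains bind cargo and hold the heavy chains in an inactive state until cargo is bound. Klc1 (chr12:111758849-111807844, plus strand) had the highest level per kilobase of all kinesin genes at P5, P15 and P28, with 159 ± 18.4 CPM per kb (SD, n = 5) at P5 and 169 ± 0.906 (n = 3) at P28. It read 584, 597, 609, 753 and 703 CPM at P5, 852, 736 and 871 at P10, 779, 734 and 686 at P15 and 685, 691 and 685 at P28, and these ranges overlapped. In the fit, which sets later ages against the P5 libraries of batch A, Klc1 was higher at P15 by 0.30 ± 0.07 (SE), adjusted p = 0.00042, and at P28 by 0.20 ± 0.07 (SE), adjusted p = 0.00855, both on the log2 scale. Without the batch term neither was called, with changes of 0.18 at P15 (adjusted p = 0.0587) and 0.08 at P28 (adjusted p = 0.364). With total counts the P28 change was 0.08 and not called (adjusted p = 0.211).

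Klc2 rose with no overlap: 127, 126, 121, 137 and 130.1 CPM at P5, 144, 154 and 138 at P7, 215, 186 and 199 at P10, 196, 192 and 183 at P15, 175, 178 and 189 at P21 and 197, 185 and 188 at P28. The change from P5 to P7 was not called. The mean was 145 ± 7.86 CPM at P7 and 199.9 ± 14.5 at P10 (SD, n = 3), 2 ages of different batches, and the levels from P10 on overlapped. The log2 change was 0.61 ± 0.06 (SE), adjusted p = 1.6e-09, at P15, and the share of Klc2 in the light chain level per kilobase went from 16.0 ± 0.968% at P5 to 20.9 ± 0.614% at P28. An antisense transcript on the opposite strand covers 10.6% of the exon bases of Klc2, and since the strand setting of the counting is not given, reads of that part cannot be assigned to either with certainty. Klc4 stayed between 7.17 and 12.3 CPM and Klc3, known from testis, between 0.241 and 1.11 CPM, and neither was called between any of the pairs of ages compared.

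Kinesin-2 motors serve cilia and also dendritic and axonal transport. Kif3a and Kif3b form the heterotrimeric motor with the adaptor Kifap3, and both fell. Kif3b (chr2:153291413-153333390, plus strand) read 175, 184, 197, 220.2 and 221 CPM at P5, 182, 194 and 175 at P7, 134, 126 and 133 at P10, 118, 113 and 111 at P15 and 109, 107 and 109 at P28. Every library from P10 on was below every P5 library, and the log2 change was -0.71 ± 0.05 (SE), adjusted p = 3.4e-11, at P15 and -0.77 at P28. Kif3a read 154, 156, 161, 210.0 and 201 CPM at P5, 144, 133 and 158 at P10, 131, 119 and 113 at P15 and 118, 122 and 117 at P28. The P5 libraries of batch B were the highest, P10 overlapped P5, and P15 and P28 lay below it, with a log2 change of -0.38 ± 0.06 (SE), adjusted p = 1.4e-05, at P15.

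Kif3c, which can pair with Kif3a, kept 355 ± 29.0 CPM (SD, n = 5) at P5, 375 ± 28.7 (n = 3) at P10, 349.5 ± 22.0 at P15 and 330.4 ± 0.622 at P28. Its libraries overlapped those of P5 at every later age, and it was called only as higher at P10 against P5 (log2 change 0.16 ± 0.06 (SE), adjusted p = 0.0250). Opposite-strand transcripts cover 40.7% of its exon bases. The adaptor Kifap3 was not called at P15 (log2 change -0.09 ± 0.07 (SE), adjusted p = 0.3).

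Kif17 (chr4:138250435-138301967, plus strand), a homodimeric kinesin-2 that carries vesicles with NMDA receptors into dendrites, had the largest log2 rise of the 42 genes at both P15 and P28. It read 6.73, 6.25, 6.93, 7.41 and 8.09 CPM at P5, 10.0, 9.63 and 11.6 at P7, 14.6, 13.2 and 15.7 at P10, 24.3, 21.3 and 18.6 at P15, 16.3, 20.3 and 22.8 at P21 and 22.8, 19.6 and 18.4 at P28. Each age up to P15 lay above the one before it with no overlap, though the change from P5 to P7 was not called, and the later ages overlapped P15. The rise was 3.22-fold at P15 (log2 change 1.69 ± 0.13 (SE), adjusted p = 5.8e-11) and 3.05-fold at P28. Its share of the kinesin-2 level per kilobase went from 1.16 ± 0.0686% at P5 to 4.40 ± 0.308% at P15. Kif17 shares 74 exon bases (1.62%) with Sh2d5 on the same strand, and Sh2d5 rose by a like amount: it stood at 23.3 CPM at P5 and at 67.7 at P15 (a change in log2 of 1.72 ± 0.09 (SE), adjusted p = 1.6e-14). The part of these shared bases in the count of Kif17 was not tested.

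**Figure D2:**
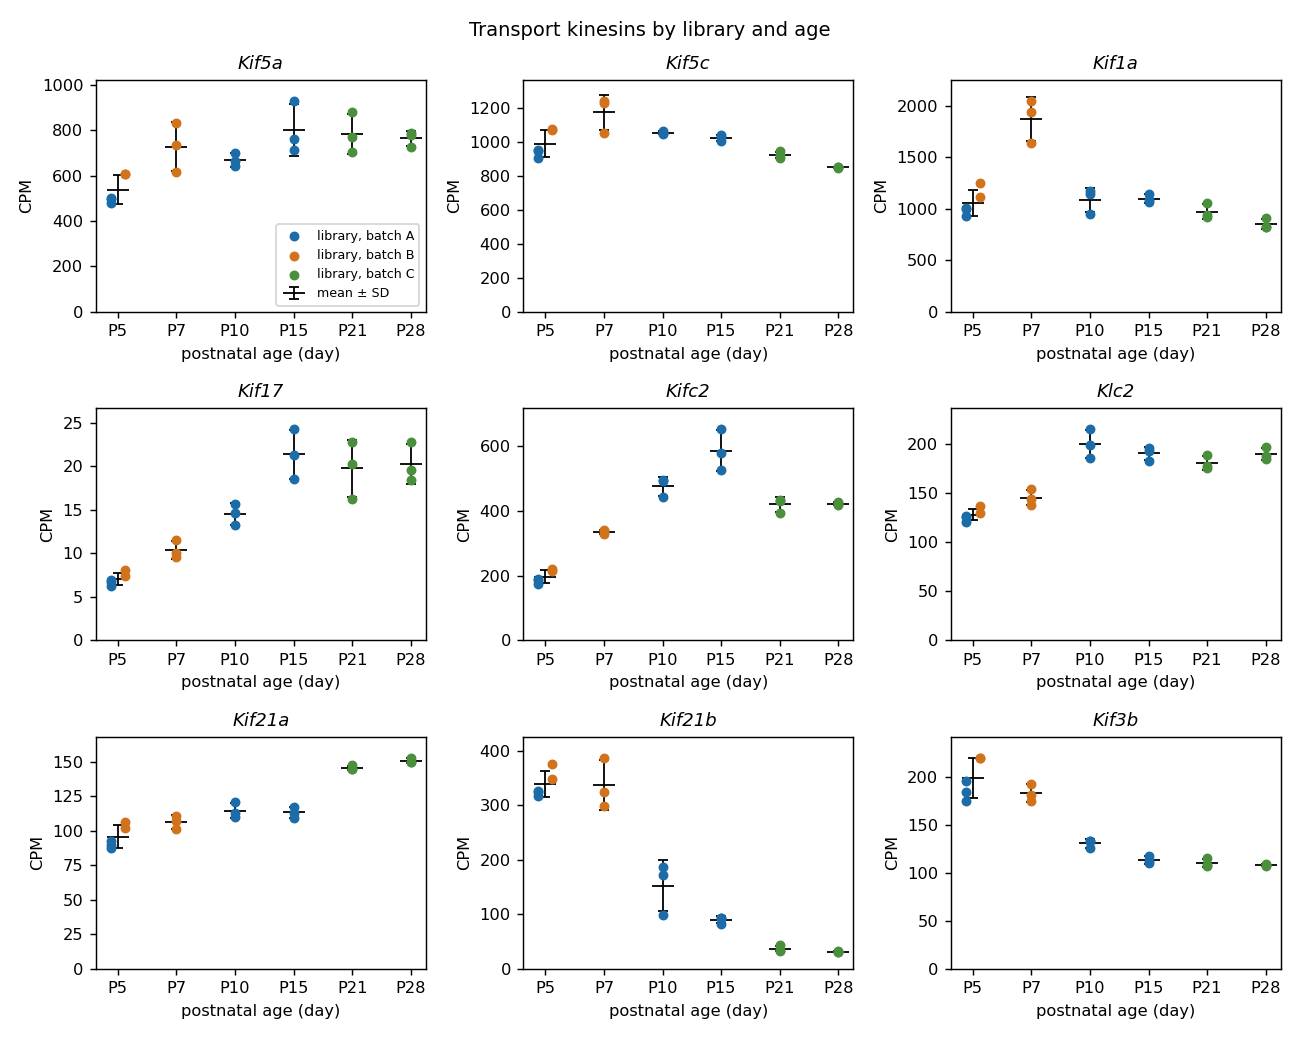
CPM (y axis, from 0) of 9 transport genes in each library by postnatal age (x axis, ages equally spaced); points are libraries coloured by batch and bars are the mean ± SD of the age. Kif17 and Kifc2 rise from P5 to P15, Kif21b and Kif3b fall, Kif1a is highest in the 3 libraries of P7, and Kif5c moves little.

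Kinesin-3 motors carry vesicles and endosomes over long distances. Kif1a (chr1:93015464-93101951, minus strand), the motor of synaptic vesicle precursors and dense core vesicles, read 931, 994, 1003, 1111 and 1253 CPM at P5, 1939.8, 2046 and 1633 at P7, 1167, 1139 and 953 at P10, 1063, 1083 and 1143 at P15, 923, 938 and 1056 at P21 and 822, 822 and 912 at P28. The P7 libraries were above all others, P10 and P15 overlapped P5, and P28 lay below P5. The change to P7 was 0.66 ± 0.09 (SE), adjusted p = 7.8e-05, that to P15 was 0.17 ± 0.08 (SE), adjusted p = 0.0803, and that to P28 was -0.20 ± 0.08 (SE), adjusted p = 0.0387, all on the log2 scale. The P28 call was lost without any of 4 libraries (P28 replicates 1 and 2, P5 replicates 2 and 3 of batch A), with adjusted p up to 0.103.

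Kif1b, whose isoforms carry mitochondria or synaptic vesicle precursors, read 521, 580.2, 576, 731 and 753 CPM at P5, 933, 973 and 755 at P7, 665, 688 and 675 at P15 and 653, 677 and 723 at P28. The ranges of P15 and P28 lay between those of the P5 libraries of batch A and batch B. Its log2 change was 0.27 ± 0.07 (SE), adjusted p = 0.00195, at P15 against batch A, and 0.10 with adjusted p = 0.401 without the batch term. Kif1c, a vesicle motor of many cell types, rose from 34.7 ± 3.45 CPM (SD, n = 5) to 49.7 ± 10.4 (n = 3) at P15 and 49.1 ± 4.37 at P28 (log2 change 0.49 ± 0.12 (SE), adjusted p = 0.00152, at P15). The early endosome motor Kif16b lay between 4.58 and 9.10 CPM and was not called between any of the ages compared.

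The endosome motor Kif13a (chr13:46749087-46929867, minus strand) fell. It read 40.3, 42.6, 46.4, 45.1 and 50.9 CPM at P5, 42.1, 50.7 and 44.1 at P7, 24.4, 19.5 and 22.2 at P10, 20.5, 22.1 and 22.9 at P15, 16.3, 16.5 and 16.5 at P21 and 15.1, 11.6 and 16.7 at P28. P5 and P7 overlapped, and every later library was below both. The fall was 1.97-fold at P15 (log2 change -0.98 ± 0.10 (SE), adjusted p = 9.6e-09) and 2.98-fold at P28. Its relative Kif13b, a vesicle motor, had a log2 change of -0.82 ± 0.16 (SE), adjusted p = 9.4e-05, at P15 and then rose from P15 to P21 (log2 change 0.48 ± 0.16 (SE), adjusted p = 0.0265), from 8.78 ± 1.79 to 12.3 ± 2.23 CPM (SD, n = 3).

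The kinesin-4 pair Kif21a and Kif21b went in opposite directions. Both act on microtubule growth in neurons, and Kif21b is found in dendrites. Kif21b (chr1:136131389-136177998, plus strand) read 316, 327, 325, 347 and 376 CPM at P5, 299, 387 and 324 at P7, 187, 98.9 and 172 at P10, 93.2, 93.5 and 82.7 at P15, 35.1, 33.3 and 43.1 at P21 and 31.5, 30.6 and 32.1 at P28. P5 and P7 overlapped, and from there each age lay below the one before it with no overlap. The fall was 3.59-fold at P15 (log2 change -1.84 ± 0.18 (SE), adjusted p = 5e-07) and 10.3-fold at P28 (log2 change -3.36 ± 0.20 (SE), adjusted p = 9.4e-10). At P10, replicate 2 stood apart from the other two at 98.9 CPM, near the level of P15. The summed level of 3 markers of CA pyramidal cells, none of them at 0 in every library of an age, stood apart in the same library, at 211 CPM against 729 and 587 CPM in replicates 1 and 3. This library was also the highest of P10 in the sums of oligodendrocyte (720 CPM), granule cell (2475 CPM), astrocyte, microglia and interneuron markers. It was the lowest in that of Cajal-Retzius cell markers (31.6 CPM). The part of these cell types in the value of Kif21b was not tested.

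Kif21a (chr15:90933276-91049948, minus strand) read 87.4, 92.6, 89.9, 102 and 107 CPM at P5, 113, 110.2 and 121 at P10, 117, 113 and 109 at P15, 145, 145 and 147 at P21 and 153, 149.9 and 149.9 at P28. It was higher at P15 (log2 change 0.33 ± 0.05 (SE), adjusted p = 4.6e-06) and rose again to P21 (log2 change 0.36 ± 0.05 (SE), adjusted p = 9.8e-06), a step that cannot be told apart from batch C. The ratio of Kif21b to Kif21a per kilobase had a P5 mean of 1.88 ± 0.0484 (SD, n = 5). With n = 3 from there on, it was 1.68 ± 0.243 at P7 and 0.704 ± 0.206 at P10. It then went to 0.421 ± 0.0189 at P15, 0.135 ± 0.0176 at P21 and 0.111 ± 0.00282 at P28. The more abundant of the pair was therefore Kif21b in all P5 and P7 libraries and Kif21a in all libraries from P10 on.

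Of the minus-end-directed kinesin-14 motors, Kifc2 (chr15:76659858-76668196, plus strand), a motor of neurons, rose and Kifc3 fell. Kifc2 read 174, 185, 188, 215 and 221 CPM at P5, 339, 338 and 327 at P7, 491, 494 and 442 at P10, 525, 579 and 651 at P15, 394, 430.4 and 435 at P21 and 427, 417 and 422 at P28. It went up at each age to P15 with no overlap, 3.21-fold in all (log2 change 1.68 ± 0.07 (SE), adjusted p = 2.4e-16), and was lower at P21 than at P15 (log2 change -0.48 ± 0.06 (SE), adjusted p = 5.6e-06). Per kilobase Kifc2 held the fifth place among kinesin genes at P5, with 50.0 ± 5.18 CPM per kb (SD, n = 5), and the second at P15, with 149 ± 16.1 (n = 3), where its spread overlapped that of Kif5c at 143 ± 2.43. The opposite-strand gene Cyhr1 covers 4.15% of its exon bases and changed by 0.18 on the log2 scale. Kifc3 read 55.3, 56.1, 51.5, 52.2 and 58.5 CPM at P5, 40.6, 41.6 and 51.0 at P15, 24.1, 25.5 and 30.3 at P21 and 27.5, 24.0 and 25.9 at P28. It lay below P5 from P10 on, by -0.29 on the log2 scale at P15 and by -1.07 ± 0.10 (SE), adjusted p = 1.5e-09, at P28, and opposite-strand genes cover 27.5% of its exon bases.

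**Figure D3:**
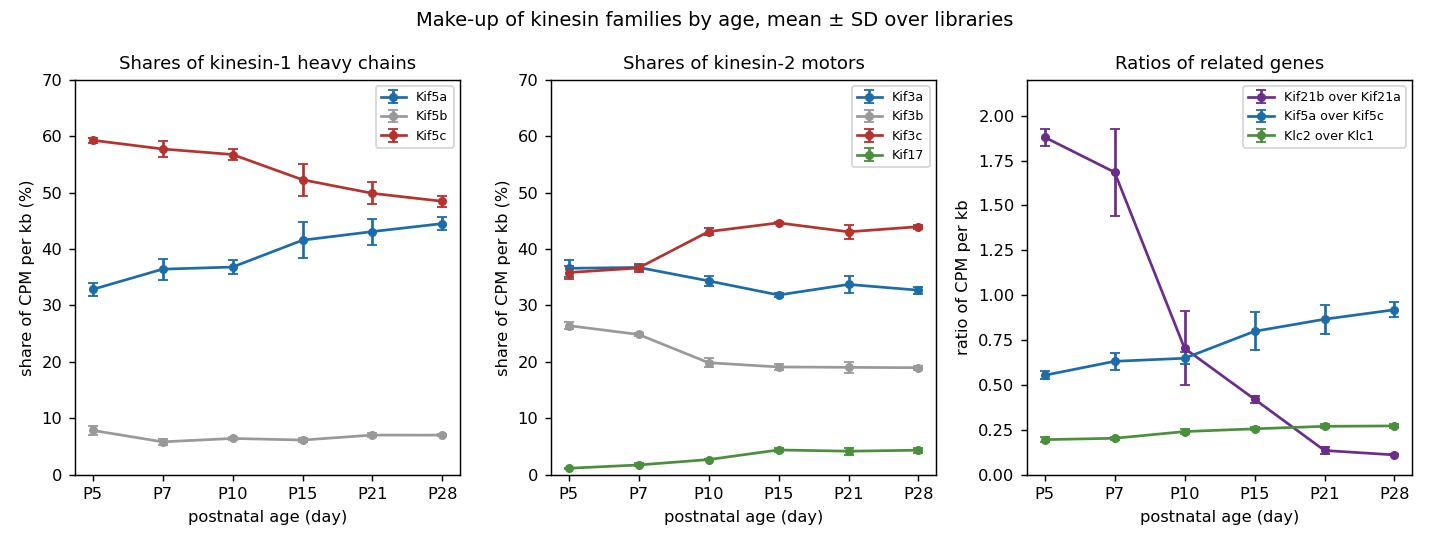
Make-up of kinesin families by age (x axis, ages equally spaced), mean ± SD over libraries, from CPM per kilobase of exon: shares (%) of the kinesin-1 heavy chains (left) and kinesin-2 motors (middle), and ratios of related genes (right). The share of Kif5a rises from 32.8% to 44.5% and that of Kif17 from 1.16% to 4.36%, while the ratio of Kif21b to Kif21a falls from 1.88 to 0.111.

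The marker lists of cell types differed in how their levels changed over the same ages. The summed level of 6 oligodendrocyte markers went from 96.3 CPM at P5 to 1299.7 at P15 and 876 at P28, with 5 of the 6 higher at P15. The 5 interneuron markers went from 154 to 276 and 249 CPM. The 6 granule cell markers went from 1699.5 to 2245 and 2428 CPM, with 3 higher at P15. The sum of 3 Cajal-Retzius cell markers went from 127 CPM at P5 to 29.3 at P15 and 16.4 at P28, and that of 3 endothelial markers from 29.0 to 9.36 and 3.32 CPM, and all 6 fell at P15. The 4 astrocyte markers summed to 236 CPM at P5, 344 at P7, 259 at P15 and 161 at P28, with 1 higher and 1 lower at P15. The 3 CA pyramidal markers summed to 297 CPM at P5, 336 at P15 and 343 at P28, with 1 higher at P15, and ranged from 211 to 729 CPM at P10. The 3 microglia markers summed to 15.7, 24.1 and 15.4 CPM at P5, P15 and P28, with 2 higher at P15. None of these markers was at 0 in every library of an age, and their part in the changes of the transport genes was not tested.

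Among the other kinesins, Kif2a, a microtubule depolymerase that trims axon branches, had the highest level per kilobase at P5. Kif2a read 152, 165, 160.3, 155 and 153 CPM at P5, 129, 136 and 119.8 at P7, 116, 114 and 138 at P10, 113, 105 and 104 at P15, 92.8, 85.4 and 89.1 at P21 and 81.1, 91.9 and 85.0 at P28. Every later library was below every P5 library, and the log2 change was -0.57 ± 0.07 (SE), adjusted p = 9e-08, at P15 and -0.89 at P28. Dimt1 on the opposite strand covers 19.2% of its exon bases. Kif24, a depolymerase of centrioles, fell from 1.46 ± 0.243 CPM (SD, n = 5) to 0.383 ± 0.107 (n = 3), a log2 change of -1.86 ± 0.36 (SE), adjusted p = 7.3e-05.

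Kif26a and Kif26b are atypical kinesins. Kif26a (chr12:112146208-112181747, plus strand) read 19.8, 20.1, 18.2, 23.7 and 19.5 CPM at P5, 12.1, 15.4 and 16.5 at P7, 5.61, 4.52 and 4.82 at P10, 5.97, 3.97 and 6.58 at P15, 1.85, 3.47 and 4.37 at P21 and 2.41, 3.62 and 3.25 at P28. Each P7 library was below each of P5, though the change from P5 to P7 was not called. All later libraries were lower again, with a fall of 3.52-fold at P15 (log2 change -1.81 ± 0.20 (SE), adjusted p = 1e-07) and 6.25-fold at P28. Kif26b read 109, 112, 116, 113 and 129 CPM at P5, 99.7, 100.2 and 93.9 at P15 and 101, 101 and 100.0 at P28. These differed by little, -0.20 ± 0.07 on the log2 scale at P15 (adjusted p = 0.0172), and the test over all 6 ages did not call Kif26b.

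Of the other kinesins, 5 are known from cilia: Kif7, a regulator of Hedgehog signalling in the primary cilium, its relative Kif27, and Kif6, Kif9 and Kif19a of motile cilia. Kif27 read 10.4, 10.7, 8.79, 12.3 and 11.6 CPM at P5, 10.0, 8.92 and 12.1 at P7, 4.22, 4.34 and 4.27 at P10, 4.19, 4.44 and 3.53 at P15, 3.22, 3.21 and 3.69 at P21 and 3.02, 3.67 and 3.25 at P28. The libraries from P10 on all lay below those of P5 and P7 (log2 change -1.30 ± 0.14 (SE), adjusted p = 2.7e-08, at P15). Kif9 read 6.50, 8.56, 9.20, 8.93 and 7.50 CPM at P5, 3.80, 4.40 and 5.66 at P10, 4.30, 3.10 and 4.53 at P15, 3.22, 3.47 and 3.23 at P21 and 4.39, 3.15 and 2.49 at P28. It too was lower from P10 on with no overlap with P5 (log2 change -1.02 ± 0.20 (SE), adjusted p = 0.00011, at P15). Kif7 fell from 4.36 ± 0.522 to 2.80 ± 0.230 CPM at P15 and 1.38 ± 0.673 at P28, and opposite-strand genes cover 20.3% of its exon bases. Kif6 read at most 2.36 CPM in any library and fell at P28 (log2 change -1.84 ± 0.38 (SE), adjusted p = 0.00015).

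Kif19a, which sets the length of motile cilia, was the only other kinesin higher at P15. It read 4.78, 4.17, 3.49, 3.20 and 2.81 CPM at P5, 2.59, 4.76 and 2.65 at P10, 5.34, 7.07 and 5.89 at P15, 2.86, 3.21 and 4.42 at P21 and 2.47, 2.57 and 3.59 at P28. The P15 libraries stood above all others, with log2 changes of 0.56 ± 0.24 (SE), adjusted p = 0.0433, against P5 and -0.80 ± 0.24 (SE), adjusted p = 0.0141, from P15 to P21. The call against P5 was lost when any of 6 libraries was left out, with adjusted p up to 0.177, and with total counts (adjusted p = 0.123). The summed level of 8 markers of ependymal cells and motile cilia went from 95.9 CPM (87.3 to 105) at P5 to 41.8 (37.8 to 45.3) at P15 and 26.8 (24.8 to 28.5) at P28. Of the 8, 7 were lower at P15, Foxj1 among them at 45.0 CPM at P5 and 15.6 at P15, and none was at 0 in every library of an age. Their part in the fall of the cilium kinesins was not tested.

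The mitotic kinesins were low at P5 and fell together. Kif11 (chr19:37376403-37421859, plus strand), which slides spindle microtubules apart, had the highest level per kilobase of them at P5. It read 12.5, 10.7, 10.5, 8.74 and 9.53 CPM at P5, 8.36, 7.01 and 8.42 at P7, 2.53, 3.67 and 1.87 at P10, 1.57, 1.81 and 3.26 at P15, 1.67, 1.82 and 1.51 at P21 and 1.32, 1.47 and 1.45 at P28. Every P7 library was below every P5 library, though the change from P5 to P7 was not called, and every later library was below P7. The fall was 5.08-fold at P15 (log2 change -2.35 ± 0.21 (SE), adjusted p = 9.7e-10) and 7.95-fold at P28.

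Kif23 and Kif20b act in cytokinesis. Kif23 (chr9:61915905-61946774, minus strand), a subunit of centralspindlin, read 5.64, 4.17, 5.65, 3.01 and 2.67 CPM at P5, 3.53, 4.08 and 4.64 at P7, 0.784, 0.843 and 0.903 at P10, 0.681, 0.877 and 1.16 at P15, 0.716, 0.535 and 0.572 at P21 and 0.548, 0.734 and 0.580 at P28. P7 overlapped P5 and all later libraries were lower, by -2.50 ± 0.23 (SE), adjusted p = 1.5e-09, on the log2 scale at P15. Kif20b read 3.11, 2.26, 2.74, 3.06 and 3.90 CPM at P5, 1.15, 0.723 and 1.08 at P10, 0.629, 0.929 and 1.11 at P15, 1.55, 1.12 and 0.468 at P21 and 0.823, 0.524 and 0.522 at P28, with no overlap between P5 and the later of these ages (log2 change -1.60 ± 0.32 (SE), adjusted p = 0.00011, at P15).

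The other 9 tested mitotic kinesins began between 2.30 and 4.18 CPM on average at P5 and were between 0.148 and 1.30 CPM at P28. The steepest of them at P28 were Kif2c, a depolymerase at centromeres, with a log2 change of -4.52 ± 0.43 (SE), adjusted p = 1.4e-09, and Kif18b and Kif15, with -4.05 ± 0.47 and -4.04 ± 0.37. The least steep was the chromokinesin Kif22, with -1.76 ± 0.32. At P28, Kif2c, Kif14 and Kif18b were at or near the level of 3 counts, so their folds there depend on few reads. Kif20a shares 29.3% of its exon bases with the opposite-strand gene Cdc23, and Kifc1 has the near-identical copy Kifc5b, between which reads may be split. Kifc5b, outside the genes described here, read 2.30, 1.97, 2.04, 1.24 and 2.52 CPM at P5. It read 1.99, 1.39 and 1.74 CPM at P15 and 1.76, 1.57 and 2.03 at P28, and these ranges overlapped. Of the 12 genes, none was called between P7 and P5 and none between P15 and P10, and Kif15 alone between P21 and P15 (log2 change -1.40 ± 0.41 (SE), adjusted p = 0.0117).

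The summed level of the mitotic kinesins was 48.5 CPM at P5 (39.3 to 61.7), 42.9 at P7 and 14.8 at P10. The P15 libraries gave 11.7 to 17.5 CPM, and the mean was 9.63 at P21 and 7.26 at P28 (6.55 to 7.79). Markers of dividing cells moved with it. The sum of 10 such markers was 131 CPM at P5 (95.1 to 166), 47.6 at P15 (44.5 to 50.7) and 38.1 at P28 (36.4 to 41.0), and 9 of the 10 fell at P15. Mki67 went from 51.7 to 7.78 and 1.34 CPM, Pcna was not called at P15 and made up most of the sum at P28 (32.3 CPM), and no marker was at 0 in every library of an age. The part of dividing cells in the fall of the mitotic kinesins was not tested.

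**Figure D4:**
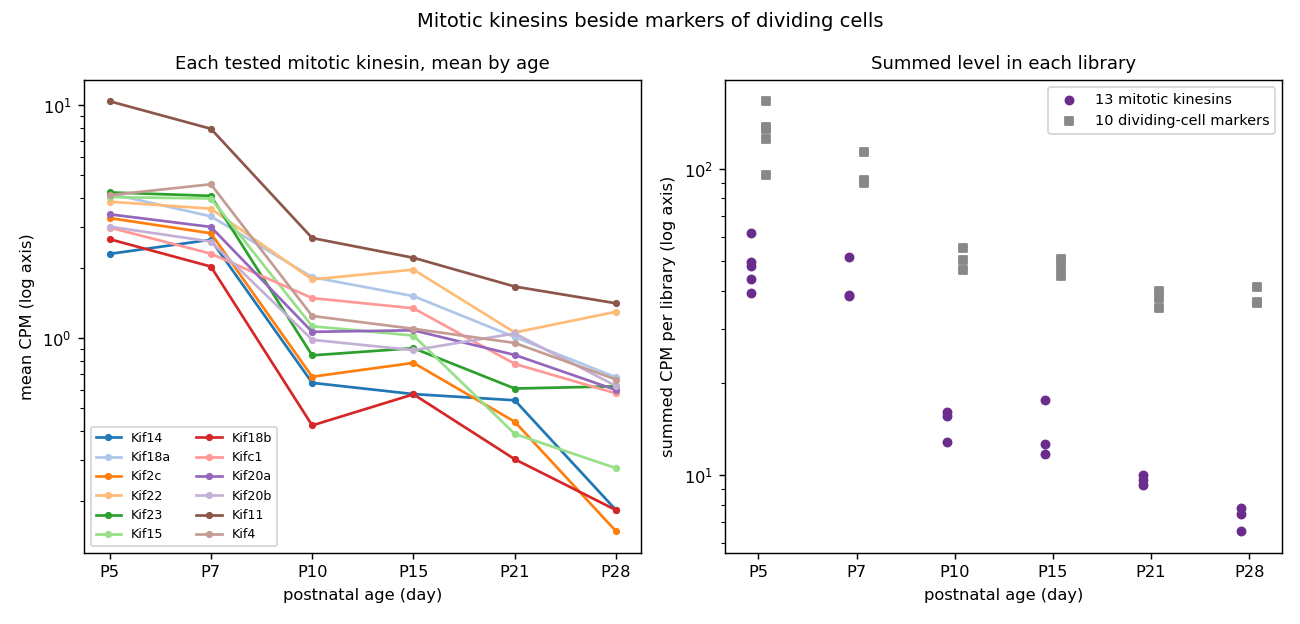
Left, mean CPM (log axis) of each of the 12 tested mitotic kinesins by postnatal age (x axis, ages equally spaced); right, summed CPM (log axis) of the 13 mitotic kinesins (circles) and of 10 dividing-cell markers (squares) in each library. The kinesin sum lies between 38.4 and 61.7 CPM in the libraries of P5 and P7 and between 6.55 and 17.5 CPM in all later ones.

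Promoters of genes that are used late in the cell cycle often hold a cell cycle genes homology region (CHR), here the letters TTTGAA, near the transcription start, with CCAAT boxes upstream. RefSeq promoter windows of 300 bases, 250 before and 50 after the start, in build GRCm38.p6, were at hand for 35 of the 45 kinesin genes. Both strands were searched for both motifs. The CHR letters were found in 10 of 12 mitotic genes, 1 of 14 transport genes and 2 of 9 other kinesins, and in 17.9% of all 32851 promoter windows. These 12 mitotic genes are not the 12 tested ones: they take in the untested Kif2b and leave out the tested Kif20a. CCAAT was found in 8 of 12 mitotic, 5 of 14 transport and 4 of 9 other kinesins, and in 37.4% of all windows. Both were found together in 7 of the 12 mitotic genes, 0 of 14 transport genes and 2 of 9 other kinesins, and in 6.95% of all windows. A match is only a match of letters. In 8 mitotic kinesins a CHR match lies within 20 bases of the start, and 6 of these windows also hold CCAAT, while those of Kif15 and Kif20b do not. The share of all windows with a CHR match this near the start was not counted. Among the other kinesins, Kif26b holds a CHR match at -9 and a CCAAT match at -73. The windows of 4 of the 6, chosen after their matches were seen, are given as examples that hold both motifs, 5′ to 3′ on the strand of the gene, with matches to either motif on either strand in capitals; no CHR match overlaps a CCAAT match in them. They are Kif11 (chr19:37376132-37376431, plus strand), Kif23 (chr9:61946750-61947049, minus strand), Kif18b (chr11:102925075-102925374, minus strand) and Kifc1 (chr17:33890584-33890883, minus strand).
Kif11: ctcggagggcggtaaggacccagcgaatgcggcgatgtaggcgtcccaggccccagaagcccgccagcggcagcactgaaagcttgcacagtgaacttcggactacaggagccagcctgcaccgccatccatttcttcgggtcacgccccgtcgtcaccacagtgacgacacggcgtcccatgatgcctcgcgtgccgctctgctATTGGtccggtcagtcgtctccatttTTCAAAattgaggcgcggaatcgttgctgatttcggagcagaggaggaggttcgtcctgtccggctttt
Kif23: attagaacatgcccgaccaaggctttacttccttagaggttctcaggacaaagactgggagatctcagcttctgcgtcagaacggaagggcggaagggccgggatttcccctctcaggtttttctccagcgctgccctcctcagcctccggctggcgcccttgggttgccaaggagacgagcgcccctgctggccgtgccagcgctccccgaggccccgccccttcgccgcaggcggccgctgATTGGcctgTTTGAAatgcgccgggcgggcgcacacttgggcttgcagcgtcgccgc
Kif18b: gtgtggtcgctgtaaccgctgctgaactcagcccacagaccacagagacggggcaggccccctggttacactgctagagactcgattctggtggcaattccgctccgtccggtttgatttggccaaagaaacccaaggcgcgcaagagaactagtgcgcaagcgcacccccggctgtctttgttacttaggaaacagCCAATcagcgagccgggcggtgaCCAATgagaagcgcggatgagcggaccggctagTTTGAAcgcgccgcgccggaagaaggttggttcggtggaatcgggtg
Kifc1: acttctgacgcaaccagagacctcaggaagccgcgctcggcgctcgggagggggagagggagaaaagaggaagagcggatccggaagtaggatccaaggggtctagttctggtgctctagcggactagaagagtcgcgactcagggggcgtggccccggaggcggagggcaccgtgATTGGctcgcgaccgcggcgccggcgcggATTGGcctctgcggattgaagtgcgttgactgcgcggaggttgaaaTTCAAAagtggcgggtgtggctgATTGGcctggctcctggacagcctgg
The first letter of the CHR match lies at -19 in Kif11, 3 in Kif23, 4 in Kif18b and 2 in Kifc1, counted from the start as 1 with -1 just before it.

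By step, P7 differed from P5 in 4 higher kinesin genes (Kif1a, Kif1b, Kif1c and Kifc2) and 3 lower ones (Kif3a, Kif3b and Kif2a), while 11% of all genes were called (6.15% higher, 4.89% lower). The spectrin genes Sptan1 and Sptbn1 were very high and uneven in these libraries: Sptan1 read 6254 and 7269 CPM in the P5 libraries of batch B and between 25712 and 39234 CPM at P7. In a fit with the spectrin level as a covariate, chosen after seeing the data, no gene at all was called between P7 and P5. In the same fit 4 transport genes were called higher at P15 (Kif17, Kifc2, Kif21a and Klc2) and 10 kinesin genes lower, 5 of them transport, 4 mitotic (Kif11, Kif18a, Kif23 and Kif4) and 1 other (Kif26a). The transport genes whose P15 call was lost with the covariate were Kif5a, Kif5b, Kif5c, Klc1, Kif1b, Kif1c, Kif3a and Kifc3. Of the other kinesins, Kif2a, Kif7, Kif9, Kif19a, Kif24, Kif26b and Kif27 lost theirs, as did all mitotic kinesins but the 4 named. Kif1a, not called in the fit without the covariate, was called lower with it at P15 (-0.47, adjusted p = 0.0468). Spectrin levels also changed with age, so the covariate and the age cannot be fully told apart.

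At P10 against P5, 9 kinesin genes were higher and 24 lower, beside 61.4% of all genes called (30.8% higher, 30.6% lower). From P10 to P15, 4 rose (Kif17, Kifc2, Kif1c and Kif19a) and 3 fell (Kif3a, Kif3b and Kif21b), beside 4.36% (1.84% higher, 2.52% lower). Without P10 replicate 1, P10 replicate 3 or P15 replicate 3, 1 of the rises and none of the falls were called. From P15 to P21, 2 rose (Kif21a and Kif13b) and 9 fell, beside 28.8% (14% higher, 14.8% lower). Between P21 and P28, edgeR called none of the 42, beside 0.254% of all genes called (0.065% higher, 0.189% lower). At an unadjusted p under 0.05 there were 5 of the 42, beside 12.7% of all genes, and DESeq2 and limma-voom also called none. At P5, batch B differed from batch A in 8 kinesin genes, 7 transport genes higher (Kif5c, Klc1, Kif3a, Kif3b, Kif1b, Kif21a and Kifc2) and Kif23 lower, beside 10.1% of all genes (6.65% higher, 3.42% lower). Over all ages together, 39 of 42 kinesin genes changed, beside 79.7%, and the 3 not called were Kif16b, Kif26b and Klc3.

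Partners of the kinesins were listed by role; beside their counts at P15, 63.4% of all tested genes were called (31.6% higher, 31.8% lower). Of 30 adaptors and cargo partners tested, 13 were higher and 8 lower at P15 than at P5 (70% called), with a median log2 change of 0.06. The adaptor Trak2, which links mitochondria to kinesin-1, stood at 142 CPM at P5 and rose to 272 at P15 (a change in log2 of 1.06 ± 0.07 (SE), adjusted p = 2e-12), and so did Rhot2, which anchors Trak proteins on mitochondria (0.93), and Arl8b, which recruits kinesin-1 to lysosomes (0.77). Nsg1, an endosomal protein of neurons, fell (-0.90). Of 22 genes of dynein, the main minus-end-directed motor, and its activator dynactin, 8 were higher and 6 lower (63.6% called), with a median of 0.08. Actr1b and Actr1a, both actin-related subunits of dynactin, moved apart: Actr1b stood at 147 CPM at P5 and at 285 at P15 (a change in log2 of 1.03 ± 0.05 (SE), adjusted p = 2.6e-15), while Actr1a went from 333 to 210.0 (-0.61). The dynein intermediate chain Dync1i2 and light intermediate chain Dync1li1 fell by 0.56 and 0.45 on the log2 scale.

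Of 18 intraflagellar transport genes, whose products kinesin-2 carries into cilia, 6 were higher and 3 lower at P15 (50% called), with a median of -0.11. Ift20 and Ift22 rose (log2 changes 0.92 and 0.41), and Ift140 and Ift27 fell (-0.51 and -0.59). Of 20 spindle partners of the mitotic kinesins, 18 were lower at P15 and none higher (90% called), with a median of -1.81. They included Racgap1, the partner of Kif23 in centralspindlin (18.7 to 6.18 CPM), Tpx2 (9.89 to 2.49 CPM) and Aspm (11.5 to 2.26 CPM). Cenpf, a kinetochore protein, stood far above the rest of the list at 4829 CPM at P5 and 157 at P15.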

How the data were processed

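Ribosome-associated RNA of 20 libraries was measured. The authors deposited 1 table of raw counts per gene symbol with no normalization. Per the submitters' processing notes, reads were handled with STAR 2.7.5b, featureCounts and SAMtools 1.10 on build mm10; the annotation, the strand setting and the treatment of multiply mapped reads are, in the sources used here, not given. Libraries were grouped by age and batch as labelled.

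The test was that of edgeR 4.0.16 under R 4.3.3 (TMM factors, filterByExpr by age, robust quasi-likelihood fit, Benjamini-Hochberg adjustment over 15373 genes, threshold 0.05). The model held 6 age means and a term for batch B, with 13 residual degrees of freedom and a biological coefficient of variation of 8.46%. Changes from P5 to P10 or later therefore use batch A as the P5 level, and changes to P7 use batch B. CPM values are counts per M of the TMM-scaled library total. Floors, the least CPM that can be told from no counts, cover counting error only. Each SE comes from the quasi-likelihood fit and each SD from the spread among libraries. Coordinates, exon lengths and overlaps come from GENCODE vM21 of mm10, promoter windows from RefSeq.

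Values by library are given for a fixed panel of 17 genes and for kinesin genes past the threshold at P15 or P28 with a log2 change of at least 1 and a mean of at least 5 CPM at 1 age; partner lists are described by counts and their 4 members of smallest p. Other genes named with values, the overlapping genes and the spectrins were added after their values were seen. The members, roles and lists were chosen with earlier results of these data known. Fits were tested on simulated data. Alternatives were other scalings and filters, DESeq2 1.42.0, limma-voom (limma 3.58.1), other batch terms, single libraries left out and a spectrin covariate.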

Additional observations from a re-analysis of the deposited data

Results flagged for a closer look

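Among the 42 tested kinesin genes, the 5 libraries of P5 were screened for a sample far from the others, and 1 gene was picked out. Kif16b, the early endosome motor, read 5.48 CPM in P5 replicate 3 of batch B, while the other P5 libraries read 6.60 to 6.87 CPM. If the 5 libraries were draws from a single population, chance alone would mark about 1 in 20 such groups. They come from batches A and B, so this rate need not hold here. Groups of 3 libraries were not screened.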

How the results depend on the processing

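Counts of called kinesin genes mostly kept within 1.5 times under the alternatives, with these exceptions. With total counts in place of TMM factors, 2 genes were higher and 6 lower at P7 against P5, and 3 differed between the P5 batches; over all genes this scaling moved the median log2 change from P5 to P15 from -0.02 to -0.14 and the share of calls that were higher from 49.8% to 39.2%. With a stricter filter (5 CPM in 3 libraries), 15 were lower at P10, 15 at P15 and 18 at P28 against P5, since fewer were tested. Without the batch term, 8 were higher at P7, and from P10 to P15 2 were higher and 1 lower. With the replicate number as a replicate block, 2 were higher at P7 and 2 from P10 to P15. Libraries of the same number did not deviate together (median r = -0.0273, 14 of 57 pairs over 0.1). Those of other numbers had a median r of 0.0275, with 30 of 114 pairs over 0.1. The numbers were therefore not taken as pairs. These values pool pairs from all ages, so they cannot tell if replicate 1 or 3 of P5 shares tissue between batches A and B. Against P5, 10 were higher at P7 without the batch B libraries of P5, and 9 with P5 libraries of the same number summed. Neither fit held a batch term, so age and batch cannot be told apart in the former and are partly mixed in the latter. The cause of these higher counts was not tested. With the spectrin covariate, chosen after seeing the data, the counts higher and lower were 0 and 0 at P7, 5 and 10 at P10, 4 and 10 at P15, 2 and 0 from P10 to P15, and 4 and 18 at P28, and 0 differed between the P5 batches; the sign turned for Kif1a (-0.47), Kif1b (-0.12), Kif9 (0.16), Kif19a (-0.31) and Kifc1 (0.18) at P15 and Kif1b (-0.10) at P28, and only Kif1a was then called. Signs of changes from P5 to P15 or P28 were compared only where the change was called in the main fit or in the alternative. No other setting turned one of these signs. Leaving out 1 library at a time gave, for the higher and lower counts, 2 to 5 and 0 to 4 at P7, 8 to 9 and 23 to 27 at P10, 8 to 11 and 24 to 27 at P15, 1 to 4 and 0 to 5 from P10 to P15, 1 to 3 and 6 to 11 from P15 to P21, 0 and 0 from P21 to P28, and 8 and 24 to 30 at P28 against P5; 2 to 11 differed between the P5 batches and 38 to 40 over all ages. The counts at P7 moved by over 1.5 times without P5 replicate 1 or 3 of batch B or any 1 of the P7 libraries, those from P10 to P15 without any 1 library of P10, P15 replicate 2 or 3, P5 replicate 2 of batch A or P21 replicate 2, the 2 rises from P15 to P21 were 1 without P15 replicate 1 or 2 or P21 replicate 3, and the P5 batch count was 2 or 3 without P5 replicate 1 of batch A or either P5 library of batch B. Depth limits Kif12, Kif28, Klc3, Kif6, Kif24 and most mitotic kinesins from P10 on, which read about 2 CPM or less.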

Other observations

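The kinesin genes summed to 6048 CPM on average at P5 (5469 to 6725), 7665 at P7 (6919 to 8268) and 6440 at P10. Later they summed to 6431 at P15, 5953 at P21 and 5675 at P28 (5587 to 5798). The light chains of kinesin-1 stood to its heavy chains, per kilobase, at 0.832 ± 0.0237 (SD, n = 5) at P5, 0.750 ± 0.0276 (n = 3) at P7 and 0.974 ± 0.0688 at P10. The ratio was then 0.842 ± 0.0957 at P15, 0.812 ± 0.0424 at P21 and 0.895 ± 0.0198 at P28. The values of P15 and P5 overlapped. Kif1bp, a protein that binds several kinesins and belongs to the adaptor list, went from 128 CPM at P5 to 247 at P15 and 317 at P28 (log2 change 1.46 ± 0.08 (SE) at P28, adjusted p = 3.9e-14 in edgeR's test); it was picked after its values were seen.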
